A study of Mus musculus with 116 samples.

Results

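Glycolysis was followed here through the messenger RNAs of 10 of its enzyme genes: Hk2, Gpi1, Aldoa, Tpi1, Gapdh, Pgk1, Pgam1, Eno1, Pkm and Ldha. They were taken by symbol from the count files of every library, and all 10 were found among the 40202 gene symbols listed there. The libraries came from 2 mouse cell lines processed with nanoSPLITS, which divides the lysate of 1 or a few cells in a nanodroplet between RNA sequencing and protein measurement. C10 is labelled as an alveolar type II epithelial line and SVEC as an endothelial line. Both were grown under standard culture without treatment. The groups were C10 libraries of 1 cell (n = 8), 3 cells (n = 6) and 10 cells (n = 6), called the input series here, and single-cell libraries of C10 (n = 48, of which 46 were kept) and SVEC (n = 48). Each line is an established culture, and nothing in the labels says that libraries of a group came from separate cultures, so the p-values measure the spread between libraries only.

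Glycolysis splits glucose into pyruvate in the cytosol and yields ATP and NADH without oxygen. Hexokinase traps glucose as glucose 6-phosphate, an isomerase and phosphofructokinase prepare the sugar for cleavage by aldolase, and the resulting triose phosphates pass through a dehydrogenase, a kinase, a mutase, an enolase and pyruvate kinase. Lactate dehydrogenase then turns pyruvate into lactate and restores the NAD+ that the pathway uses. Cultured cell lines commonly send much of their glucose to lactate, and the genes for most of these enzymes are known targets of the hypoxia-inducible factors and of Myc.

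Values are read counts per gene scaled to 1000000 counts of the library (CPM), so each is a share of a library's RNA. A lower share of RNA and fewer transcripts per cell cannot be told apart from it. Total counts ran from 430798 to 15385625 in the 1-cell libraries, from 6889508 to 14018116 in the 3-cell and from 8313314 to 14778988 in the 10-cell libraries. The kept single-cell libraries held 83188 to 5911755 counts in C10 (median 1881704) and 5122 to 2831907 in SVEC (median 434945). In SVEC, 42 of 48 libraries reached 100000 counts, against 45 of 46 in C10. Replicate 1 of the 1-cell group stood apart, with 538 genes detected and 64.6% of its counts on mitochondrially encoded genes. Replicate 1 of the 3-cell and of the 10-cell group also had the lowest total, the fewest genes (8933 and 11477) and the highest mitochondrial share (16.7% and 17.8%) of its group. The defining markers of the labels were largely silent. Among 10 alveolar type II markers, Sftpa1, Sftpb, Sftpc, Sftpd and Nkx2-1 were at 0 in every C10 single cell, with a summed level of 0 to 172 CPM over the list. Among 12 endothelial markers, Kdr, Tie1, Vwf, Emcn, Esam and Cldn5 were at 0 in every SVEC single cell, with a summed level of 0 to 138 CPM. Among 5 fibroblast markers, Lum was at 0 in every single cell of both lines. Only 2 of the 5, Col1a1 and Dcn, were detected in enough libraries to be tested between the lines. The summed level over the list was 476 to 14200 CPM in C10 and 0 to 9852 CPM in SVEC. Dcn averaged 2591 CPM in C10 and 1305 CPM in SVEC, and Col1a1 484 and 319 CPM. The part of these markers in the results on the enzyme genes was not tested.

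Together the 10 genes took a larger mean share of counts in SVEC than in C10, with overlapping ranges. Their summed share was 1.14% ± 0.404 of counts in C10 single cells (SD, n = 46) and 1.76% ± 0.899 in SVEC single cells (SD, n = 48). In the input series it was 1.08% ± 0.347 for 1 cell (SD, n = 8), 1.15% ± 0.163 for 3 cells (SD, n = 6) and 1.03% ± 0.180 for 10 cells (SD, n = 6). The C10 groups differed by less than their spread, and the SVEC range of 0.408% to 4.39% reached above the C10 single-cell range of 0.413% to 2.07%. With libraries of at least 100000 counts only, the means were 1.15% in C10 and 1.84% in SVEC.

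**Figure D1:**
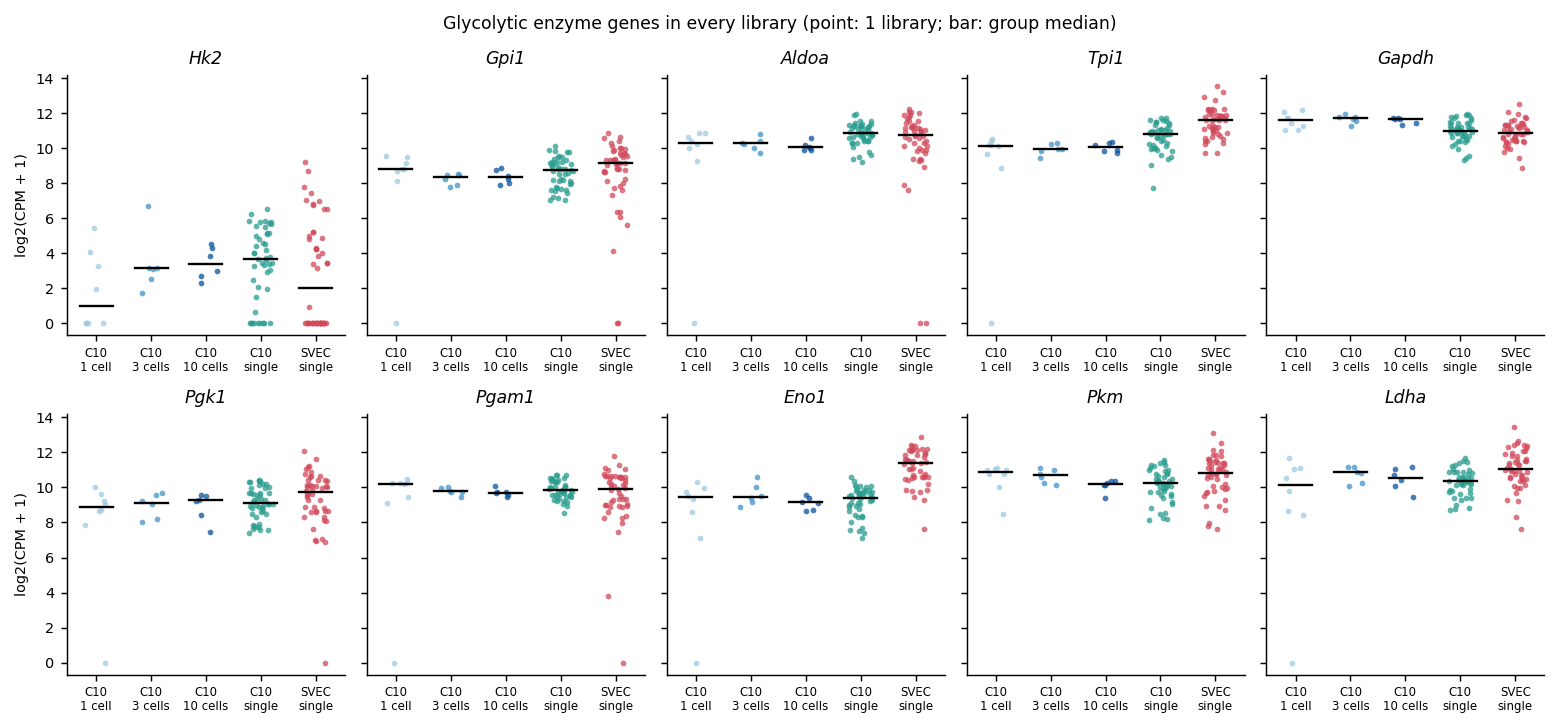
Level of each of the 10 genes as log2(CPM + 1) on the vertical axis, in every kept library of the 5 groups; 1 point is 1 library and the bar is the group median. The Eno1 median is higher in SVEC than in the 4 C10 groups, Hk2 is low with many libraries at 0, and the 1-cell points at 0 in panels other than Hk2 are all replicate 1, while some SVEC libraries are at 0 as well.

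Which gene of the pathway was most abundant depended on the line. Per kilobase of the annotated transcript, Gapdh was the highest of the 10 in 29 of 46 C10 single cells, in 7 of 8 libraries of 1 cell and in all 12 libraries of 3 and 10 cells. In SVEC single cells Tpi1 was the highest in 25 of 48 libraries, Eno1 in 9, Ldha in 7 and Gapdh in 4. On that scale the mean level of Gapdh was 1514 CPM per kilobase in C10 single cells and 1453 in SVEC. The mean level of Tpi1 was 1106 CPM per kilobase in C10 and 2056 in SVEC, and that of Eno1 was 331 and 1363. Hk2 was the lowest of the 10 in every C10 single cell and in 42 of 48 SVEC cells, with 3.84 and 8.79 CPM per kilobase. Transcript lengths came from a GENCODE annotation of build GRCm38, whereas the annotation behind the counts is not given in the sources used here.

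The comparison of C10 with SVEC single cells asks how the 2 lines differ in this pathway. In the quasi-likelihood test of edgeR with TMM scaling, 4 of the 10 genes had an adjusted p under 0.05. Gapdh was higher in C10, while Eno1, Ldha and Tpi1 were higher in SVEC. Among all 9303 genes tested 1754 passed, which is 18.9%, and 4.48% passed as higher in SVEC and 14.4% as higher in C10. The median log2 difference of all genes, C10 minus SVEC, was 0.35 with TMM, against -0.002 with library totals alone and 0.53 with DESeq2 size factors. The median of the 10 genes was -0.28 with TMM, below that of all genes. Each of the 10 differences was lower with library totals than with TMM, and differences are also given relative to the median of all genes.

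Eno1, the enolase that makes phosphoenolpyruvate, differed most between the lines. In C10 single cells its lowest, median and highest levels were 138, 686 and 1530 CPM. In SVEC single cells they were 195, 2673 and 7550 CPM. Of 48 SVEC libraries, 35 lay above the highest C10 library and 46 above the C10 median. The means were 671 ± 318 CPM in C10 (SD, n = 46) and 2763 ± 1586 CPM in SVEC (SD, n = 48), a ratio of 4.12. The log2 difference of C10 minus SVEC was -1.67 with a standard error of 0.21 (edgeR, adjusted p = 1.24e-10), which is -2.01 relative to the median of all genes. Of the 9303 genes tested, 5.97% had a lower log2 difference. Eno1 passed the threshold in all 10 alternative analyses, with log2 differences of -2.08 to -1.50, and was at -1.95 in limma's test (adjusted p = 1.65e-13).

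Tpi1 and Ldha were also higher in SVEC, by less. Tpi1 encodes triose phosphate isomerase, which interconverts the products of the cleaved sugar. Its lowest, median and highest levels were 207, 1781 and 3400 CPM in C10 and 844, 3073 and 11761 CPM in SVEC, where 20 of 48 libraries exceeded every C10 library. The log2 difference was -0.50 with a standard error of 0.16 (edgeR, adjusted p = 0.0208), or -0.84 relative to the median of all genes. Ldha encodes the main subunit of lactate dehydrogenase in most proliferating cells. Its levels ran from 414 through a median of 1336 to 3272 CPM in C10 and from 195 through 2142 to 10992 CPM in SVEC, with 14 of 48 SVEC libraries above every C10 library. The log2 difference was -0.58 with a standard error of 0.19 (edgeR, adjusted p = 0.0244), or -0.92 relative to that median. Both passed in limma's test on log2(CPM + 1), with adjusted p of 0.000128 for Tpi1 and 0.00223 for Ldha. Over the 10 alternatives Tpi1 passed in 6, with log2 differences of -0.91 to -0.33, and Ldha in 7, with -0.98 to -0.35. Neither passed in the DESeq2 test or with DESeq2 size factors (edgeR, adjusted p = 0.110 for Tpi1 and 0.108 for Ldha). Tpi1 did not pass among libraries of at least 100000 counts (edgeR, adjusted p = 0.120).

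Gapdh, the dehydrogenase that makes NADH and a common reference gene, had nearly the same share of counts in both lines. Its lowest, median and highest levels were 646, 2051 and 3893 CPM in C10 and 463, 1867 and 5961 CPM in SVEC, and the ranges overlapped almost fully. The log2 difference was 0.44 with a standard error of 0.15 (edgeR, adjusted p = 0.0222), but only 0.10 relative to the median of all genes. With library totals alone it was 0.04 (edgeR, adjusted p = 0.887) and in limma's test 0.09 (adjusted p = 0.689), so Gapdh did not pass under those settings. Over the 10 alternatives Gapdh passed in 5, with log2 differences of 0.04 to 0.58. Aldoa, the aldolase of muscle and most cultured cells, was likewise level, with medians of 1831 CPM in C10 and 1688 CPM in SVEC. Its log2 difference was 0.40 with a standard error of 0.22 (edgeR, adjusted p = 0.219; limma, 0.186). Among libraries of at least 100000 counts it was 0.51 and passed (edgeR, adjusted p = 0.0155), whereas with library totals alone it was 0.01 (adjusted p = 0.985).

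Pkm and Pgk1, the 2 kinases that make ATP in the pathway, had higher means in SVEC and passed in 3 of 10 alternatives each: with library totals alone, under the strictest filter on detection, and in limma's test among libraries of at least 100000 counts. Pkm ran from 276 through a median of 1196 to 3087 CPM in C10 and from 195 through 1842 to 8905 CPM in SVEC. Its log2 difference was -0.31 with a standard error of 0.22 (edgeR, adjusted p = 0.364), and -0.71 with library totals alone (adjusted p = 0.00673), with adjusted p of 0.0137 under the strictest filter and 0.0264 in limma among deeper libraries. Pgk1 ran from 166 through 557 to 1349 CPM in C10 and from 0 through 847 to 4404 CPM in SVEC. Its log2 difference was -0.25 with a standard error of 0.24 (edgeR, adjusted p = 0.539), and -0.64 with library totals alone (adjusted p = 0.0453), with adjusted p of 0.0338 and 0.0491 under the other two. In limma's test neither passed (adjusted p = 0.0616 for Pkm and 0.588 for Pgk1). Relative to the median of all genes, Pkm stood at -0.65 and Pgk1 at -0.60 with TMM. A value above the threshold does not show that the lines are alike, and the standard errors leave room for differences of that size.

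Pgam1, Gpi1 and Hk2 did not pass under any of the alternatives run, although Hk2 was not among the genes tested under the strictest filter on detection. Pgam1, the mutase ahead of enolase, had medians of 916 CPM in C10 and 975 CPM in SVEC and a log2 difference of 0.24 with a standard error of 0.22 (edgeR, adjusted p = 0.515; limma, 0.323). Gpi1, the isomerase that makes fructose 6-phosphate, had medians of 422 and 570 CPM and a log2 difference of -0.06 with a standard error of 0.26 (edgeR, adjusted p = 0.917; limma, 0.830). Hk2, the insulin- and hypoxia-responsive hexokinase, had a count in 37 of 46 libraries of C10 but in 25 of 48 of SVEC. Its median was higher in C10, at 11.9 against 4.41 CPM, but its mean was higher in SVEC, at 48.5 ± 109 against 21.2 ± 22.8 CPM (SD, n = 48 and 46). The log2 difference of -0.60 had a standard error of 0.65 (edgeR, adjusted p = 0.604) and turned to 0.59 in limma's test (adjusted p = 0.417). After thinning every library of at least 100000 counts to that total, Hk2 had a count in 62.2% of 45 libraries of C10 and in 45.2% of 42 of SVEC.

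**Figure D2:**
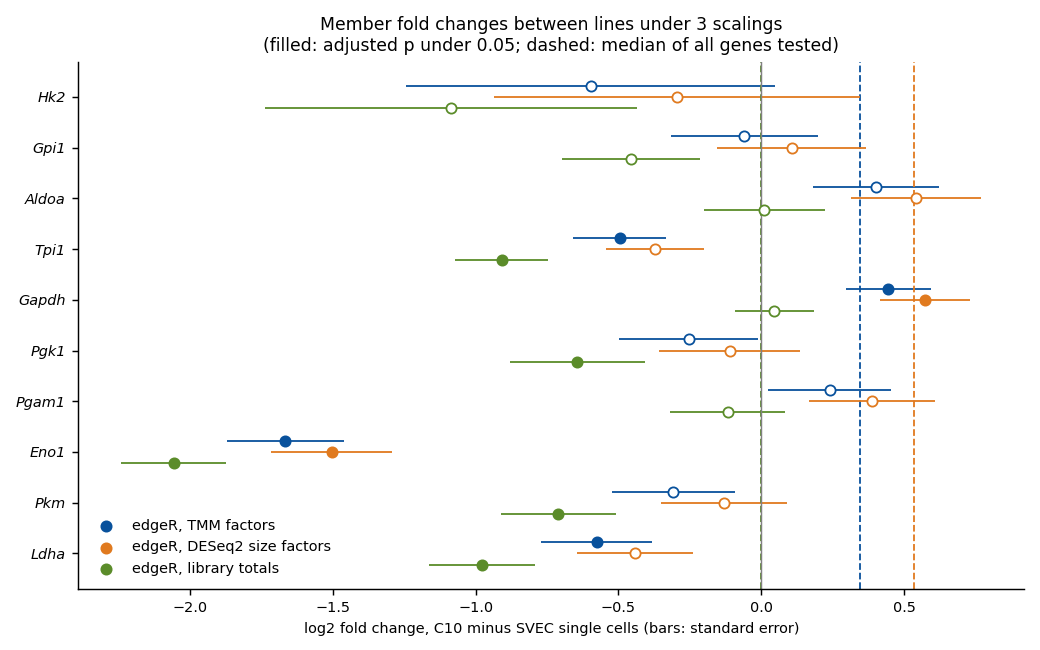
log2 difference of each gene between C10 and SVEC single cells (horizontal axis, C10 minus SVEC, bars are standard errors) in edgeR fits with TMM factors, DESeq2 size factors or library totals; filled points have an adjusted p under 0.05 and dashed lines mark the median of all genes tested. Eno1 is lower in C10 under each scaling, from -2.06 to -1.50, while Gapdh is filled with TMM and size factors, open with library totals, and within 0.10 of the dashed line of each.

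Only the 2 lines were compared in this set, with 1 set of libraries each, so line and library set cannot be told apart. The median total was lower in SVEC, and the part of depth in the differences was addressed only by the values among libraries of at least 100000 counts. Limma's test called 3 of the 10 genes, Eno1, Tpi1 and Ldha, all higher in SVEC, against 34.6% of all genes in either direction and 3.53% in that direction. Its median log2 difference of all genes was 0.62, C10 minus SVEC, with 2895 genes called higher in C10 and 328 higher in SVEC. With library totals, 5 of the 10 passed, all higher in SVEC, against 17.1% of all genes and 7.2% in that direction. The DESeq2 test called 2, Gapdh as higher in C10 and Eno1 as higher in SVEC, against 15.9% of all genes and 2.09% as higher in SVEC.

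Isozyme shares within a library are not scaled to the library total. Which libraries enter, and whether a minor isozyme is counted, can still depend on depth. Among libraries with at least 20 counts over the 3 enolase genes, Eno1 took 77.6% ± 17.0 of their counts in C10 single cells (SD, n = 46) and 88.9% ± 13.0 in SVEC (SD, n = 46). C10 minus SVEC this was -11.3 percentage points, which passed in a two-sided permutation test (adjusted p = 0.00265 over 5 families). The rest was mostly Eno3, the muscle-type enolase, at a mean of 177 CPM in C10 and 247 CPM in SVEC, while Eno2, the neuronal type, was counted in 17 of 46 and 18 of 48 libraries. The C10 libraries of 1, 3 and 10 cells had Eno1 shares of 74.7% ± 19.7 (SD, n = 7), 84.0% ± 11.7 (SD, n = 6) and 75.8% ± 3.96 (SD, n = 6), all below the SVEC mean. Aldolase and lactate dehydrogenase counts fell almost entirely on Aldoa and Ldha. Aldoa took 99.7% in C10 and 100% in SVEC, and Ldha 99.9% and 99.5%, with adjusted p of 0.302 and 0.498 in permutation tests.

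Hexokinase counts were divided between Hk2 and Hk1, the form found in most tissues. Hk2 took 55.1% ± 36.9 of them in C10 single cells (SD, n = 27) and 35.1% ± 40.6 in SVEC (SD, n = 26), where the median was 10.5%. The difference of 20.0 points did not pass (permutation test, two-sided, adjusted p = 0.168). With at least 100 counts over the family it was 36.0 points (permutation test, adjusted p = 0.00337, 19 C10 and 13 SVEC libraries), and with at least 1 count 23.0 points (adjusted p = 0.0482). Among libraries of at least 100000 counts it was 22.4 points and did not pass (permutation test, adjusted p = 0.102). With the replicate block it was 37.3 points and did not pass either (permutation test, adjusted p = 0.0978). Libraries lay near 0% and near 100% in both lines. Phosphofructokinase counts were shared among Pfkl, Pfkm and Pfkp, and the Pfkp share of 32.8% in C10 and 21.6% in SVEC did not differ beyond the spread (permutation test, adjusted p = 0.175).

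**Figure D3:**
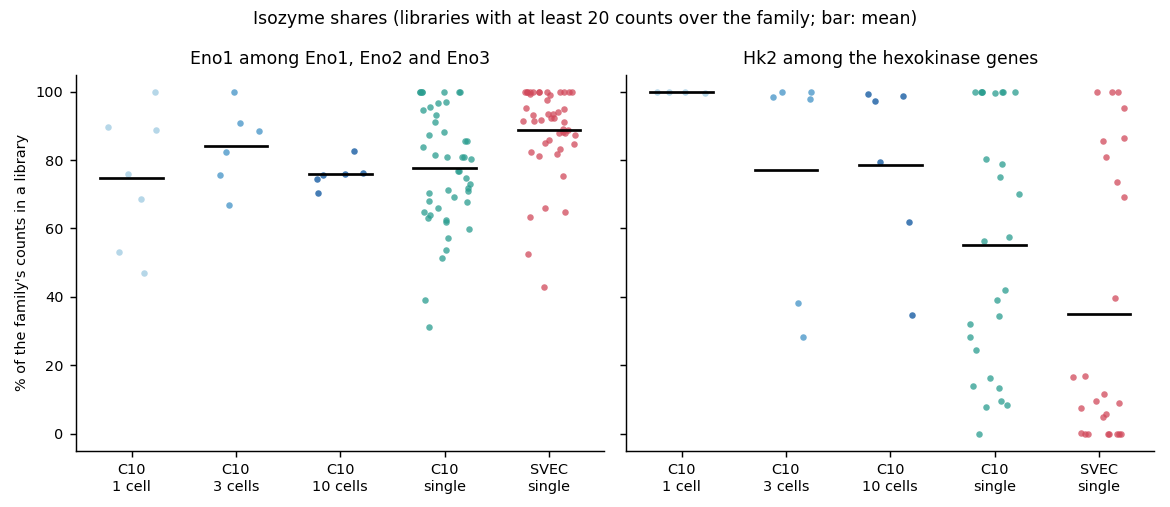
Percent of a family's counts on Eno1 (left) and on Hk2 (right) in each library with at least 20 counts over the family, by group; bars are means. Eno1 shares average 77.6% in C10 and 88.9% in SVEC single cells, and Hk2 shares spread from 0% to 100% in both.

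In the input series, which asks how the number of pooled cells changes a transcript's measured share, none of the 10 genes passed in edgeR's test in any of the 3 comparisons. For 10 cells against 1 cell, 0 of the 10 passed against 10.7% of 13645 genes tested. An unadjusted p under 0.05 was found for 0 of the 10, against 2581 of all genes. In that fit 9 of the 10 differences were negative, with a median of -0.40 against 0.36 for all genes. In limma's test 9 of the 10 were positive, with a median of 1.03 against 1.45 for all genes. The direction thus depended on the test, while the median of the 10 lay below that of all genes in both. Without 1-cell replicate 1, the unadjusted p was 0.0164 for Gpi1, 0.0171 for Pkm, 0.0229 for Pgam1, 0.0391 for Aldoa and 0.0415 for Gapdh (edgeR). These genes were lower with 10 cells, and none passed after adjustment (edgeR, adjusted p of 0.124 to 0.239). How many of all genes had an unadjusted p under 0.05 in the fit without replicate 1 is not given here. These unadjusted values therefore have no share of all genes beside them. For 3 cells against 1 cell the counts were 0 of 10 against 6.35%. For 10 against 3 cells they were 0 of 10 against 0%, where 1346 genes had an unadjusted p under 0.05 and limma called 35 (0.257%) and DESeq2 195 (1.43%), none of them one of the 10. The DESeq2 test called Gapdh and Pkm lower with 10 cells than with 1 cell, with log2 differences of -1.35 (adjusted p = 0.00929) and -1.70 (adjusted p = 5.26e-05), against 7.37% of all genes in either direction, 0.901% in that one, and a median of all genes of -0.55. In the edgeR fit these were -0.30 with a standard error of 0.40 and -0.72 with a standard error of 0.48.

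The 1-cell libraries spanned wider ranges than the pools for most of the 10 genes, with 8 libraries against 6. Gapdh ran from 2082 through a median of 3113 to 4634 CPM in the 1-cell libraries, from 2412 through 3341 to 3953 CPM with 3 cells and from 2578 through 3234 to 3414 CPM with 10 cells. Its means of 3156, 3263 and 3104 CPM lay within 1 SD of each other. Tpi1 ran from 0 through 1123 to 1485 CPM with 1 cell, from 699 through 982 to 1237 CPM with 3 cells and from 841 through 1053 to 1293 CPM with 10 cells. The groups overlapped for every one of the 10 genes. The library at 0 was replicate 1, which had no count of Hk2, Gpi1, Aldoa, Tpi1, Pgk1, Pgam1, Eno1 or Ldha, while its Gapdh stood at 2082 and its Pkm at 2105 CPM. Without it, the 1-cell mean of Tpi1 was 1078 ± 343 CPM (SD, n = 7) against 943 ± 496 CPM with it (SD, n = 8).

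Ldha ran from 344 to 3264 CPM among the other 7 libraries of 1 cell, from 1085 to 2340 CPM with 3 cells and from 711 to 2331 CPM with 10 cells. Pkm was low in replicate 5 of the 1-cell group, at 357 CPM, and stood between 1060 and 2215 CPM in the other 7. Eno1 ran from 138 to 1288 CPM in those libraries without replicate 1, from 468 to 1550 CPM with 3 cells and from 400 to 766 CPM with 10 cells. All of these Eno1 values lay below the SVEC median of 2673 CPM. Hk2 was counted in 4 of 8 libraries of 1 cell and in all 12 of 3 and 10 cells, with a median of 1.47 CPM, then 7.86 and 10.1 CPM. After thinning to 100000 counts it was found in 3 of 8, 2 of 6 and 2 of 6 libraries, so detection did not go up with the number of cells at equal totals.

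Single C10 cells were measured in both sets, and the order of the groups differed by gene. Gapdh averaged 3156 ± 971 CPM in the 1-cell libraries (SD, n = 8) and 2149 ± 858 CPM in the C10 single cells (SD, n = 46), with overlapping ranges. Tpi1 was the reverse, with 943 ± 496 CPM in the 1-cell libraries and 1777 ± 795 CPM in the C10 single cells. Eno1, at 632 ± 438 and 671 ± 318 CPM, and Gpi1, at 454 ± 244 and 451 ± 248 CPM, were close in both sets. These sets were listed separately in the labels and were not tested against each other. With the 5 groups ordered by mean level, neighbouring groups differed by more than the larger SD only for Gapdh, between the 10-cell and the C10 single-cell libraries, and for Eno1, between the SVEC and the 3-cell libraries.

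Genes elsewhere in glucose metabolism were taken from lists drawn up with earlier results of these data known. Between the lines, of 7 tested genes for other isozymes 0 passed, of 6 for glucose entry and lactate or pyruvate transport 0, of 7 flux regulators 0, of 5 for pyruvate dehydrogenase 0 and of 3 for gluconeogenesis 0 in edgeR, against 18.9% of all genes. Limma, which called 34.6% of all genes, called 2 of the 7 isozymes (Pfkl and Bpgm), 1 of 6 for transport (Mpc1), 1 of 7 flux regulators (Myc), 2 of 5 for pyruvate dehydrogenase (Pdha1 and Dlat) and 1 of 3 for gluconeogenesis (Pck2). In the pentose phosphate pathway 1 of 4 passed in edgeR and 3 of 4 in limma (Pgls, Rpe and Taldo1). Taldo1, the transaldolase that links this pathway back to glycolysis, averaged 411 ± 176 CPM in C10 (SD, n = 46) and 186 ± 160 CPM in SVEC (SD, n = 48), a log2 difference of 1.45 with a standard error of 0.33 (edgeR, adjusted p = 0.00034; limma, 2.07e-05). Among other targets of the hypoxia-inducible factors 2 of 8 passed in edgeR and 4 of 8 in limma (also Egln1 and Ndrg1), all higher in C10. Over all genes, 14.4% passed as higher in C10 in edgeR, and 2895 of 9303 in limma. In edgeR 4 of the 8 differences were positive and 4 negative. The summed level of the 12 targets listed had a median of 1385 CPM in C10 and 1533 CPM in SVEC. Vegfa, a vascular growth factor, averaged 90.9 ± 91.3 CPM in C10 and 12.4 ± 37.1 CPM in SVEC (log2 difference 2.92, edgeR, adjusted p = 0.00108; limma, 5.21e-08). Ero1a, an oxidase of the endoplasmic reticulum, averaged 130 ± 133 and 48.3 ± 116 CPM (log2 difference 1.88, edgeR, adjusted p = 0.0287; limma, 7.08e-05) and did not pass in edgeR with library totals alone (adjusted p = 0.140). The median log2 difference was 0.27 for these 8 targets, -0.28 for the 10 enzyme genes and 0.35 for all genes. G6pdx, Txnip and Adm were listed at 0 in every library.

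In the input series some genes of these lists had few or no counts with 1 cell. Eno2 had no count in any of the 8 libraries of 1 cell and averaged 20.3 ± 17.0 CPM with 10 cells, with a count in 5 of 6 libraries. Tigar, which lowers fructose 2,6-bisphosphate, had none with 1 cell and averaged 18.8 ± 18.4 CPM with 10 cells. G6pc3, a glucose 6-phosphatase, had none with 1 cell and averaged 24.3 ± 12.7 CPM with 10 cells. Hk1 had a count in 1 of 8 libraries of 1 cell and averaged 5.03 CPM with 10 cells. For 10 cells against 1 cell, edgeR called 3 of 11 other isozymes (Eno2, Hk1 and Gapdhs), 3 of 9 flux regulators (Tigar, Pfkfb4 and Pdk2) and 1 of 5 genes of gluconeogenesis (G6pc3), against 10.7% of all genes. Such genes entered the test only through the pools in which they were detected, so these calls are no support for a difference. Of the 7, limma called Eno2 and G6pc3 only (adjusted p = 0.0258 and 0.0245), with 0.0539 to 0.397 for the other 5.

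Across single cells of a line, most of the 10 genes went up and down together. Over 45 C10 libraries of at least 100000 counts, the 45 pairs of members had a median Pearson r of 0.503 in log2(CPM + 1), and over 42 SVEC libraries 0.455. The median over all pairs of 1448 genes detected in at least 75% of both lines was 0.0706 in C10 and 0.0615 in SVEC, with 90% of pairs between -0.256 and 0.458 and between -0.253 and 0.406. The pairs share the library totals, and the mean standardised level of the 10 genes had an r of 0.418 with log2 total counts in C10 and 0.249 in SVEC. The pairs of all genes were not matched to the members in level. Values of this size were not limited to the 10 genes. Cfl1 had an r of 0.663 with Pkm in C10 and 0.637 with Eno1 in SVEC, and Eef1a1 0.611 and 0.632 with the same members. Gapdh and Tpi1, which act next to each other, had an r of 0.793 in C10 and 0.745 in SVEC. With the mitochondrial percent of the library, Gapdh had an r of -0.464 in C10 and 0.0233 in SVEC. Tpi1 had -0.614 and -0.224. The highest mitochondrial share of a kept C10 single cell was 30.9%, against a median of 7.14%. The part of this share in the r of pairs was not tested. Pkm and Aldoa reached 0.807 in C10 and 0.506 in SVEC, and Ldha and Tpi1 0.632 and 0.748. Hk2 stood outside, with r of -0.274 to 0.0743 with the other 9 in C10 and -0.312 to 0.130 in SVEC. Gpi1 varied, with r of 0.165 to 0.353 with the other members but Hk2 in SVEC and 0.111 to 0.625 in C10. Without Hk2 and Gpi1, the lowest r of the 28 pairs was 0.292 in C10 and 0.323 in SVEC.

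**Figure D4:**
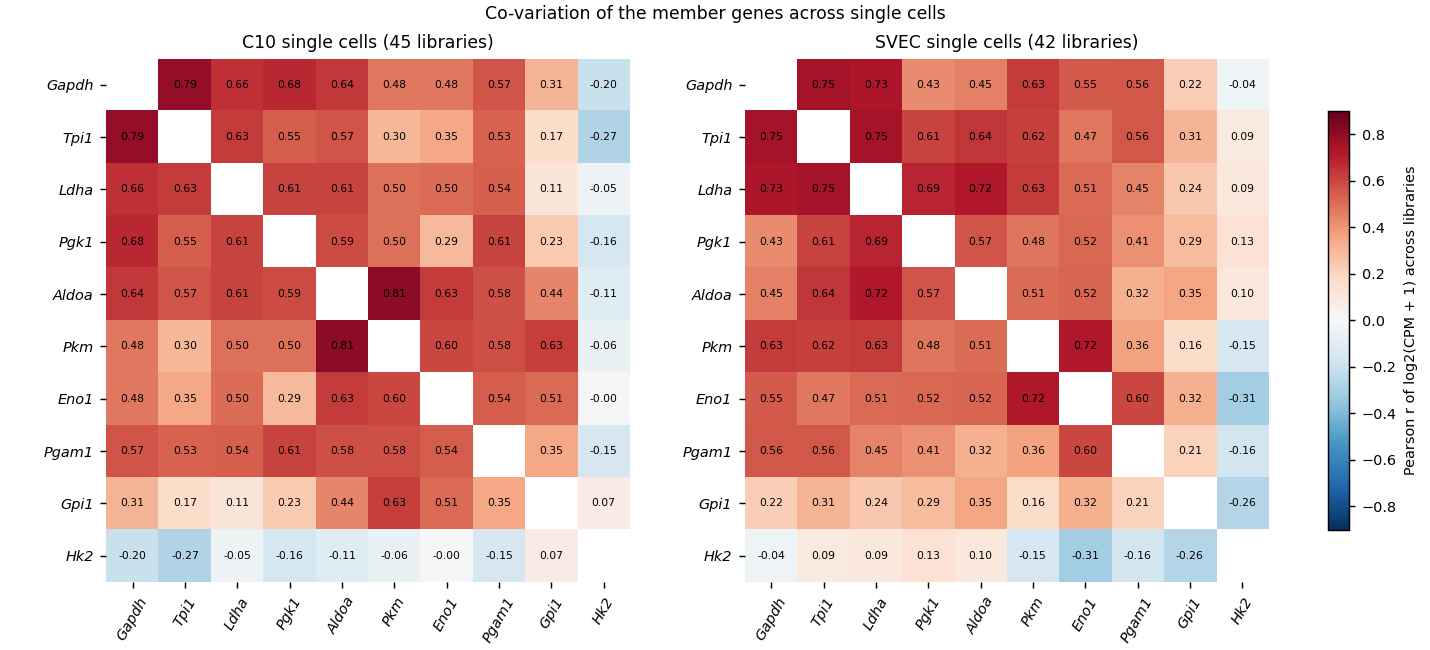
Pearson r of log2(CPM + 1) between each pair of the 10 genes across single-cell libraries of at least 100000 counts, C10 left (45 libraries) and SVEC right (42 libraries); red is positive and blue negative. The block from Gapdh to Pgam1 is positive throughout in both lines, and Hk2 is the palest.

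The start regions of all 10 genes, whether or not they moved together, were searched for the core letters of the hypoxia-response element, ACGTG and GCGTG, on both strands. The windows were 300 bases long, from 250 before to 50 after the start, from RefSeq on GRCm38.p6, and all 10 genes were matched. Taking each gene's window with most matches, 8 of 10 held at least 1, against 46.7% of 27025 genes. Genes with several windows are favoured by that choice. Over single windows, 12 of 16 of the members held a match, against 43.8% of 32851. Hk2 was among the 8, and Tpi1 and Gpi1 had none. Ldha had 7 matches, and Gapdh and Pgam1 3 each. By the window with most matches, 30% of the members and 10.2% of all genes held 3 or more. The palindrome CACGTG counts on both strands, and the letters say nothing about binding. The 3 upstream stretches of 250 bases are printed 5′ to 3′ on the gene's strand, with matches in capitals, because these genes held the most in the whole window. The printed stretches hold 5 of the 7 matches of Ldha, 2 of the 3 of Gapdh and all 3 of Pgam1.
Ldha, chr7:46845554-46845803, plus strand: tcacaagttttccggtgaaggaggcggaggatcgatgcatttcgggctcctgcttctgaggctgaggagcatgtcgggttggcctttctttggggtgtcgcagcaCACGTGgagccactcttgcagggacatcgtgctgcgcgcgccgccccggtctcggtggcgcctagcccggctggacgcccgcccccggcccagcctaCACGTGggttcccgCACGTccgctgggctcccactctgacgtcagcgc
Gapdh, chr6:125165774-125166023, minus strand: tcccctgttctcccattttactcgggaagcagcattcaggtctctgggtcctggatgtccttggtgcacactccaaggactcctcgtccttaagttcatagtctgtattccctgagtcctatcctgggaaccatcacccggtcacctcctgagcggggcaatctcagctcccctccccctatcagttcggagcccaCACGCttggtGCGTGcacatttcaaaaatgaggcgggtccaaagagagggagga
Pgam1, chr19:41911621-41911870, plus strand: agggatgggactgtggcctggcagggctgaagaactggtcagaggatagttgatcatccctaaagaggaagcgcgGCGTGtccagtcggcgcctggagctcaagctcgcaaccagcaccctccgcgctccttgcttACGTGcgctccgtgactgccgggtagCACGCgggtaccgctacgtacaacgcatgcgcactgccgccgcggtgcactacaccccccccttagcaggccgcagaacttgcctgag

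The genes outside the pathway whose levels were most like the mean of the 10 were named by the lower of the 2 lines' r, among 1439 genes detected in at least 75% of both lines. They were 9330179D12Rik (r of 0.686 in C10 and 0.743 in SVEC), Gm40056 (0.578 and 0.597), Spag16 (0.572 and 0.633), Ccdc30 (0.597 and 0.493) and Cfl1 (0.560 and 0.441). Cfl1 encodes cofilin, which severs actin filaments. For the other 4, the member with the highest r was the same in both lines. 9330179D12Rik had an r of 0.868 with Tpi1 in C10 and 0.925 in SVEC, Gm40056 0.885 and 0.840 with Pgk1, Spag16 0.687 and 0.640 with Gapdh, and Ccdc30 0.651 and 0.604 with Ldha. The next member was close for Ccdc30 (0.575 with Eno1 in C10 and 0.524 with Pgk1 in SVEC) and for Spag16 in SVEC (0.568 with Tpi1). It was farther for Gm40056, at 0.525 and 0.577 with Ldha, and 9330179D12Rik had 0.753 and 0.717 with Gapdh.

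Each of those 4 genes contains a pseudogene copy of the member with which its r was highest, in the GENCODE vM21 annotation of build GRCm38. This was looked for after their values were seen. 9330179D12Rik, a long non-coding RNA gene, contains Tpi-rs11 at chr6:127183409-127183718, which is 97.7% identical to the Tpi1 transcript over 310 bases. Gm40056, also non-coding, contains Gm5537 at chr3:58102996-58104247, a processed copy identical to the Pgk1 transcript over all its 1252 bases. Spag16 contains Gm28580 at chr1:70067968-70068055, 95.5% identical to Gapdh over 88 bases. Ccdc30 contains Ldha-ps2 at chr4:119334389-119335445, 94.7% identical to Ldha over 836 bases. Among 1437 of the compared genes that could be placed, 11 held a copy of any member, which is 0.765%. None of the 4 pseudogenes is a listed symbol of the count files.

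The likeness of copy and member, on which the next values turn, is visible in 90 bases of coding sequence, with mismatches in capitals. Pgk1 and Gm5537 are shown from the start codon, and Tpi1 and Tpi-rs11 from coding base 589 to 678, where 5 bases differ. The reads were 150 bases long.
Pgk1: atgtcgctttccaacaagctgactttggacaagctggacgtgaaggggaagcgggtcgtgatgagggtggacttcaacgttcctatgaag
Gm5537: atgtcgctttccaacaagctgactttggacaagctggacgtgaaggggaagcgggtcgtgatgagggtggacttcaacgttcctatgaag
Tpi1: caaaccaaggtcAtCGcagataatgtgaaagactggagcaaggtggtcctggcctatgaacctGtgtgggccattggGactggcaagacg
Tpi-rs11: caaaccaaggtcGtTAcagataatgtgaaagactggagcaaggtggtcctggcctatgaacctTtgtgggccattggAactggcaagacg

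The proportion of these genes' counts to the member's was narrow for the medians and wider for single libraries. Gm40056 had a median of 12.6% of the Pgk1 count in C10 single cells (range 6.27% to 29.7%, 45 libraries) and 9.91% in SVEC (4.82% to 42.7%, 42 libraries). In the libraries of 1, 3 and 10 cells its median was 9.84%, 10.7% and 11.9%. 9330179D12Rik had a median of 2.05% of the Tpi1 count in C10 and 2.18% in SVEC single cells, and 1.31%, 1.54% and 1.90% in the input series. Ccdc30 lay at 0.109% of Ldha in C10 and 0.150% in SVEC. Spag16 differed between the sets, with a median of 0.665% of Gapdh in C10 and 0.697% in SVEC single cells but 0.116% to 0.199% in the input series. The files' counter for reads aligned at more than 1 place was 0 in every library, and how the authors treated such reads is not given in the sources used here. Whether reads of the members were counted in these genes, or the reverse, was not tested.

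**Figure D5:**
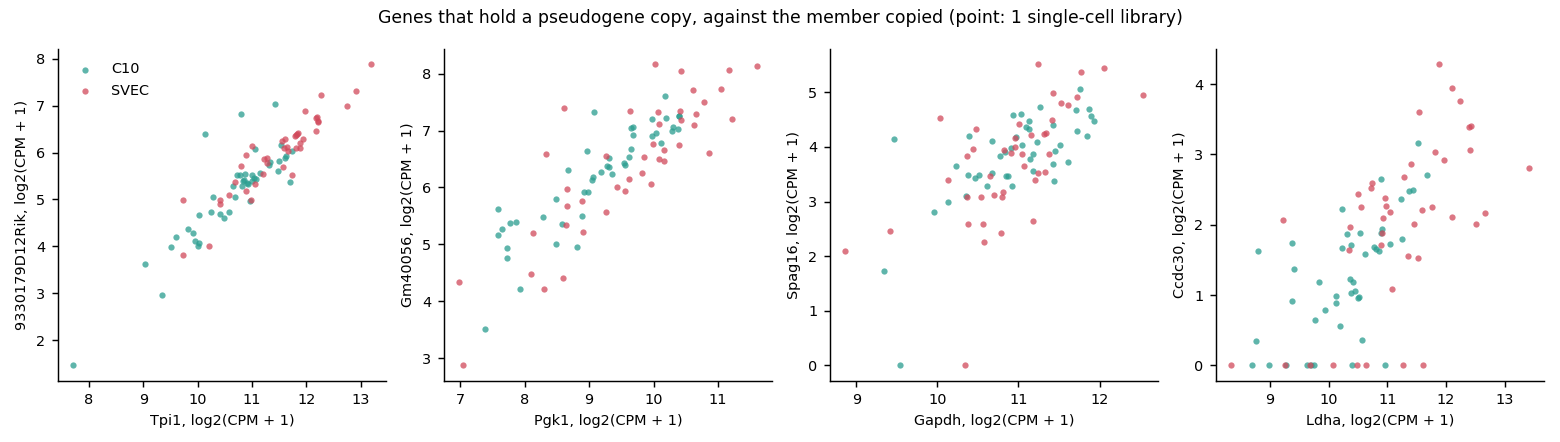
Level of the 4 genes that contain a pseudogene copy (vertical axes) against the member copied (horizontal axes), both as log2(CPM + 1), in single-cell libraries of at least 100000 counts; green is C10 and red is SVEC. The 2 non-coding genes follow Tpi1 and Pgk1 along 1 line in both cell lines, and Spag16 and Ccdc30 scatter more.

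Copies also limit how exactly the members themselves were counted. The annotation holds 430 pseudogene copies of the 10 genes, of which 336 are of Gapdh, 32 of Ldha, 14 each of Pkm and Eno1, 11 of Aldoa and 0 of Hk2. At 95% identity or more there are 76 for Gapdh, 4 for Pgk1, 2 each for Eno1 and Ldha, 1 each for Tpi1, Pgam1 and Gpi1, and 0 for Pkm and Aldoa. Of the retrogenes and testis-type relatives listed in the files, Aldoart1 had 793 counts over all 114 libraries and Gapdhs 648, while Eno1b, Pgk2 and Ldhal6b were listed at 0. The levels of all members but Hk2 are therefore uncertain by the reads that copies may have taken or given. Pkm and Aldoa are included, although their copies are below 95% identity, as is Ldha-ps2.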

How the data were processed

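RNA sequencing counts were used for 116 libraries of 2 mouse cell lines. Full-length cDNA was made with SMART-Seq v4 Plus and read as single reads of 150 bases, per the labels' protocols. The deposited values are raw counts per gene symbol, whole numbers that the authors had not normalized. FastQC, STAR and HTSeq are named in the submitters' processing notes, and the genome build, annotation and strand setting are not given in the sources used here. The 5 closing counters of each file name no gene and were left out of library sizes. They held 24.5% to 99.9% of a library's reads (median 39.5%).

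Libraries of at least 1000 counts were kept (114). Tests used edgeR 4.0.16 in R 4.3.3 (quasi-likelihood, TMM factors, Benjamini-Hochberg adjustment over all genes tested, threshold 0.05). Genes had to be detected in at least 50% of libraries of 1 group in the input series, or 25% in the single cells. The 3 input groups shared 1 fit. Alternatives were DESeq2 1.42.0 and its size factors, library totals, other filters, limma 3.58.1 on log2(CPM + 1), a detection-rate covariate, deeper libraries, a replicate block and leaving libraries out. The scripts were tested on simulated data, where edgeR made more false calls than limma among single cells, so limma's values for the comparison of the lines are given beside edgeR's. Isozyme shares were compared by permutation tests with 100000 resamples. Copies were found with blastn 2.17.0 against GENCODE vM21 transcripts. All 10 genes are named. The genes, and the lists of related genes, were chosen with earlier results of these data known, and from the lists those past the threshold are named, as are the 5 genes most like the mean of the 10. Reads carry no molecular identifiers, so counts limit precision only as reads. Some results on related genes are not reported here.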

Additional observations from a re-analysis of the deposited data

Results flagged for a closer look

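In 30 groups of values (10 genes in 3 groups of the input series), 5 values stood far from the rest of their group by Dixon's criterion. Its nominal rate is 1 in 20, or 1.5 groups, for independent and normally spread values. The 10 genes share the same libraries and Hk2 was at 0 in several, so that rate is a rough guide only. Hk2 was at 42.0 CPM in replicate 10 of the 1-cell group, against 0 to 15.7 CPM in the others. Hk2 was at 101 CPM in replicate 5 of the 3-cell group, against 2.38 to 8.01 CPM. Pkm was at 663 CPM in replicate 1 of the 10-cell group, against 1127 to 1337 CPM, and that library had the lowest total and the highest mitochondrial share (17.8%) of its group, whose part was not tested. Replicate 5 of the 10-cell group held the other two, with Aldoa at 1541 CPM against 939 to 1151 CPM and Pgam1 at 1102 CPM against 699 to 843 CPM.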

How the results depend on the processing

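Of the tests of single genes under all alternatives, 367 kept their side of the threshold and direction where called, 10 gained a call and 12 lost one, and the causes were not tested. Between the lines, 2 of the 10 genes passed with DESeq2 size factors and 2 in the DESeq2 test, against 4. The calls over all genes between the lines (1754) became 5437 with no filter, 489 with the strictest filter, 3223 in limma, 2752 in limma among deeper libraries (added after seeing the data) and 3199 with a replicate block. For 10 cells against 1 cell, DESeq2 called 2 of the 10 genes, and calls over all genes (1456) became 455 with size factors, 48 with no filter, 412 with the strictest filter, and 0 with the detection-rate covariate (edgeR, 1373 at an unadjusted p under 0.05). For 3 cells against 1 cell (866) they became 197, 65 and 281 in the same order, 121 in limma and 0 with the covariate (edgeR, 2132 unadjusted). For 10 against 3 cells they were 195 in DESeq2, 35 in limma and 2 with the covariate. Leaving out 1 library gave 336 (1-cell replicate 1) to 2769 (1-cell replicate 10) calls for 10 against 1, 32 to 2035 for 3 against 1, where 1-cell replicates 1, 2, 5, 9, 10, 13 and 14 each moved the count by over 1.5 times, and 0 to 0 for 10 against 3. None of the 10 genes was called without any 1 library. The hexokinase difference was 36.0 points with at least 100 counts and 23.0 with at least 1 count, and passed in both. Among libraries of at least 100000 counts it was 22.4 points, and with the replicate block 37.3, without passing in either.

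Replicate numbers did not pair the libraries: 0 of 6 pairs in each input comparison and 2 of 46 single-cell pairs correlated above 0.1, and 0, 3 and 2 of 6 and 2 of 46 libraries correlated best with their own number. With the replicate block, 3 of the 10 genes passed between the lines, and no gene did for 10 or 3 cells against 1 cell (0 and 0 calls by edgeR, 3020 and 1595 unadjusted). The enolase difference was -11.6 points. Depth limited Hk2, whose detection went from 80.4% to 62.2% in C10 single cells after thinning, and from 100% to 33.3% with 3 and with 10 cells.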
